A study of Mus musculus with 64 samples.

Results

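Mice with high and low striatal Fkbp5 RNA were compared across the other genes of the transcriptome. The 20 mice were chosen by their measured Fkbp5 level alone, out of 32, so they are not treatment groups. Within each of 4 strata, formed by Cyfip2 genotype and set of mice (numbers 1 to 16, set A, or 17 to 32, set B), mice were ranked by Fkbp5 in counts per mega counts of the library (CPM). The top 3 and bottom 3 were taken in the strata of 10 mice, and the top 2 and bottom 2 in the strata of 6, which gave 10 high and 10 low mice. The remaining 12 mice lay in the middle. The high mice comprised 5 of the Cyfip2 genotype N/- and 5 of the genotype N/N, as did the low mice. The N allele is the missense Cyfip2 variant of C57BL/6N mice, the minus sign marks a null allele, and the labels call N/- mice binge-resistant and N/N mice binge-prone. Every mouse was on a C57BL/6NJ background, was 82 to 84 days old, and had spent 5 min on the elevated plus maze on Day 24, just before its striatum was punched out. Females made up 5 of the 10 high and 6 of the 10 low mice (Fisher's exact test, two-sided, p = 1). No diet, training or corticosterone value is labelled, so any such difference between mice of a genotype is not analysed here.

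FKBP5 is a co-chaperone that binds the glucocorticoid receptor through HSP90 and lowers the receptor's affinity for hormone. The activated receptor binds DNA elements near Fkbp5 and raises its transcription, which closes a negative feedback loop. Corticosterone, the main glucocorticoid of the mouse, rises after stress and with the daily rhythm, and Fkbp5 RNA in brain is widely used as a readout of recent exposure.

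Fkbp5 itself is given as a description, because it chose the mice. It had 52.8, 57.3 and 65.8 CPM (lowest, median and highest) in the 10 high mice, against 42.8, 47.9 and 50.9 CPM in the 10 low mice. The 12 middle mice ran from 49.1 to 54.8 CPM. The averages were 58.6 ± 4.13 CPM in high mice and 47.4 ± 2.75 CPM in low mice (SD, n = 10 each), and 51.6 ± 1.94 CPM in the middle mice (SD, n = 12). Within strata the ratio of high to low means was 1.18 to 1.26. Fkbp5 was well counted, with 1308 to 2196 reads per mouse.

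The edges of the groups lay close to the middle mice in some strata and apart from them in others. Among N/- mice of set A, the lowest high mouse had 52.8 CPM and the next mouse 51.7 CPM, while the highest low mouse had 45.0 CPM and the next 49.1 CPM. Among N/- mice of set B, 56.0 CPM was inside and 54.8 CPM outside the high group, and 49.5 CPM inside and 51.6 CPM outside the low group. Among N/N mice of set A these pairs were 56.3 and 50.7 CPM for the high group, and 49.4 and 49.9 CPM for the low group. Among N/N mice of set B they were 58.2 and 54.5 CPM for the high group, and 50.9 and 51.0 CPM for the low group. Ranking by the first sequencing run alone kept 9 high and 9 low mice, and ranking by the second kept 9 high and 8 low mice.

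**Figure D1:**
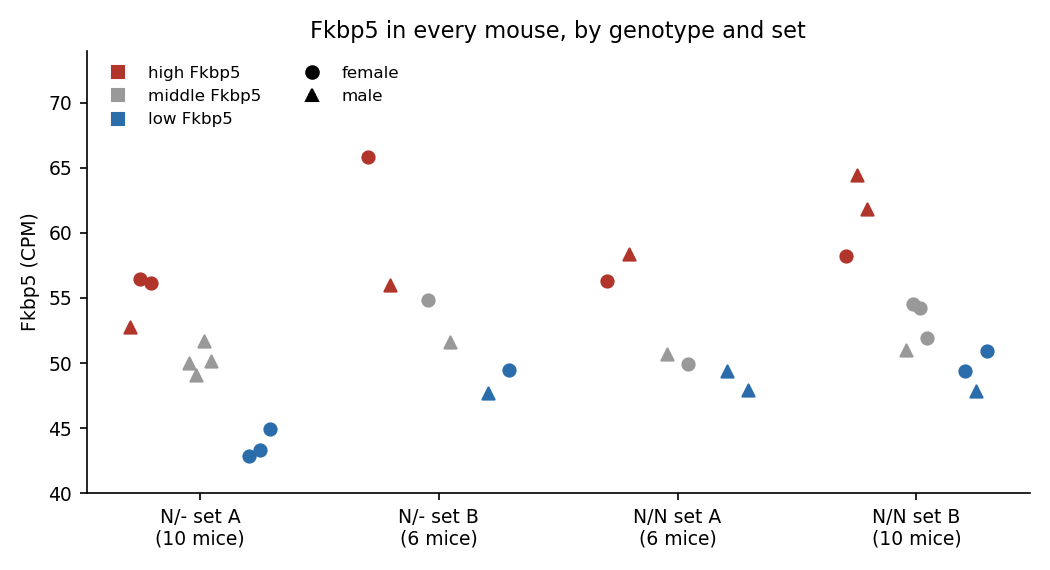
Fkbp5 in CPM (y axis) in each of the 32 mice, by Cyfip2 genotype and set (x axis). Each point is 1 mouse. High mice (red) ran from 52.8 to 65.8 CPM and low mice (blue) from 42.8 to 50.9 CPM; the y axis does not start at 0.

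The label of a stress hormone state was checked against 38 other genes known to be induced by glucocorticoids. Of these, 3 passed the test, beside 1.14% of all tested genes. The mean log2 level of the 38 genes ran from 4.04 to 4.55 in high mice and from 3.99 to 4.20 in low mice. The groups thus overlapped, and no hormone value is given. The groups are therefore called high-Fkbp5 and low-Fkbp5 mice. Cyfip2, the gene that was altered, had 510.8 to 647.9 CPM in the 16 N/- mice and 927.3 to 1279 CPM in the 16 N/N mice. Totals were 29.1 to 33.8 mega counts per mouse in the 20 mice, and their difference between states had an exact stratified permutation p of 0.655 (two-sided). High mice had 19711 ± 185 and low mice 19842 ± 151 genes with at least 1 count (SD, n = 10 each; exact stratified permutation p = 0.0631, two-sided), and the share of mitochondrial counts gave p = 0.702 by the same exact permutation test. The trimmed-mean (TMM) scaling factor of edgeR averaged 0.991 ± 0.0271 in high and 1.01 ± 0.0148 in low mice (SD, n = 10 each; exact stratified permutation p = 0.0574, two-sided). A pair of high mice stood apart. The library labelled mouse 3, an N/N female, held 36 Xist reads, where other females had at least 27239 and males at most 598, and 31 reads of the Y-linked Ddx3y, where males had at least 2200. Mouse 12, an N/- female, had the highest mitochondrial share (10.4%). The 20 mice came from 18 cages, with high mice 26 and 27 in a shared cage and low mice 28 and 30 in another. No cage held both a high and a low mouse, so cage and state cannot be told apart.

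Across 16965 tested genes, 193 differed between high-Fkbp5 and low-Fkbp5 mice in the quasi-likelihood test of edgeR at a Benjamini-Hochberg adjusted p under 0.05 (1.14% of those tested). Of these, 118 were higher (0.696%) and 75 lower (0.442%) in high-Fkbp5 mice. The median log2 difference over all tested genes was 0.002. At an unadjusted p under 0.05, 1350 genes (7.96%) were higher and 1469 (8.66%) lower. In no gene did the high and low mice separate without overlap (0 of 16965). These p-values measure the spread between the sampled mice, and the labels do not say that the mice came from separate litters.

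With cage as a random effect in limma voom, 0 genes passed and 2422 had an unadjusted p under 0.05, while limma voom without cage called 210. The correlation within cages was estimated at 0.597 and rests on the pair of cages that held more than 1 of these mice. The number of genes called also changed with single mice. It was 0 without high mouse 3, 25 or 32 or low mouse 9, 2 without high mouse 13 or low mouse 30, and 10 without high mouse 27 or low mouse 4. It was 17, 24, 51, 76, 95, 115 and 122 without mice 20, 1, 26, 15, 12, 28 and 17 in turn, 210 without mouse 8, 228 without mouse 22, 332 without mouse 6, 373 without mouse 10 and 402 without mouse 21. Without both mouse 3 and mouse 12, 0 genes passed in edgeR, with 1779 at an unadjusted p under 0.05 (10.5%). All 193 genes kept their direction in each of these fits. The fits reuse nearly all the mice that chose the genes, so a kept direction is no separate test. In DESeq2, 713 genes passed (4.2%), among them all 193.

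Most glucocorticoid-induced genes had higher levels in high-Fkbp5 mice, but few passed the test. Of the 38 listed genes, all of which passed the filter on low counts, 30 had a positive and 8 a negative log2 difference, beside 50.9% positive among all tested genes. The list's median log2 difference was 0.14. By the adjusted test 3 genes rose, Sgk1, Klf9 and Sult1a1, and none fell, beside 0.696% higher and 0.442% lower among all tested genes. At an unadjusted p under 0.05, 15 of the 38 were higher and 1 was lower. Among all tested genes these shares were 7.96% and 8.66%.

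Sgk1 (Entrez 20393, chromosome 10, 21882184 to 21999903, mm10), a serum- and glucocorticoid-induced kinase that acts on ion channels and transporters, had 66.0, 78.7 and 138 CPM (lowest, median and highest) in high mice, against 50.2, 65.0 and 71.3 CPM in low mice. These and all further CPM values carry edgeR's TMM scaling, a trimmed-mean factor per library. All 10 high mice lay above the median of the low mice, although the ranges overlapped. The log2 difference was 0.37 (SE 0.08; edgeR, Benjamini-Hochberg adjusted p = 0.0335).

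Klf9 (Entrez 16601, chromosome 19, 23141226 to 23168129, mm10), a zinc finger repressor induced by glucocorticoid and thyroid hormone in neurons, had 160.0, 184 and 231 CPM (lowest, median and highest) in high mice, against 133, 157 and 178 CPM in low mice. The 12 middle mice, which are not part of the comparison of high with low, averaged 177 ± 15.9 CPM (SD, n = 12). The log2 difference was 0.26 (SE 0.05; edgeR, adjusted p = 0.0335). Sult1a1 (Entrez 20887, chromosome 7, 126672865 to 126690443, mm10), a phenol sulfotransferase, had 5.33, 7.31 and 11.4 CPM in high mice, against 3.804, 5.15 and 6.53 CPM in low mice, with a log2 difference of 0.56 (SE 0.12; edgeR, adjusted p = 0.0407). For each of these genes all 10 high mice again lay above the low mice's median. With cage as a random effect in limma voom none of the 3 passed, with adjusted p of 0.0690 for Sgk1, 0.0690 for Klf9 and 0.0743 for Sult1a1 and log2 differences of 0.36, 0.25 and 0.54.

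The size of these differences was steadier than the calls. When each mouse was left out in turn, Sgk1 stayed between 0.28 and 0.40, Klf9 between 0.24 and 0.29 and Sult1a1 between 0.45 and 0.61 on the log2 scale. The adjusted p ran from 0.0247 to 0.0997 for Sgk1, from 0.00580 to 0.0997 for Klf9 and from 0.0321 to 0.115 for Sult1a1 (edgeR). Klf9 was called in 11 of the 20 fits, Sgk1 in 10 and Sult1a1 in 6. Without high mouse 3, 13, 25, 27 or 32, or low mouse 4, 9, 20 or 30, none of the 3 was called, and without low mouse 1 Sgk1 and Sult1a1 were lost. Sult1a1 was also lost without high mouse 12 or 26 or low mouse 15 or 28.

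**Figure D2:**
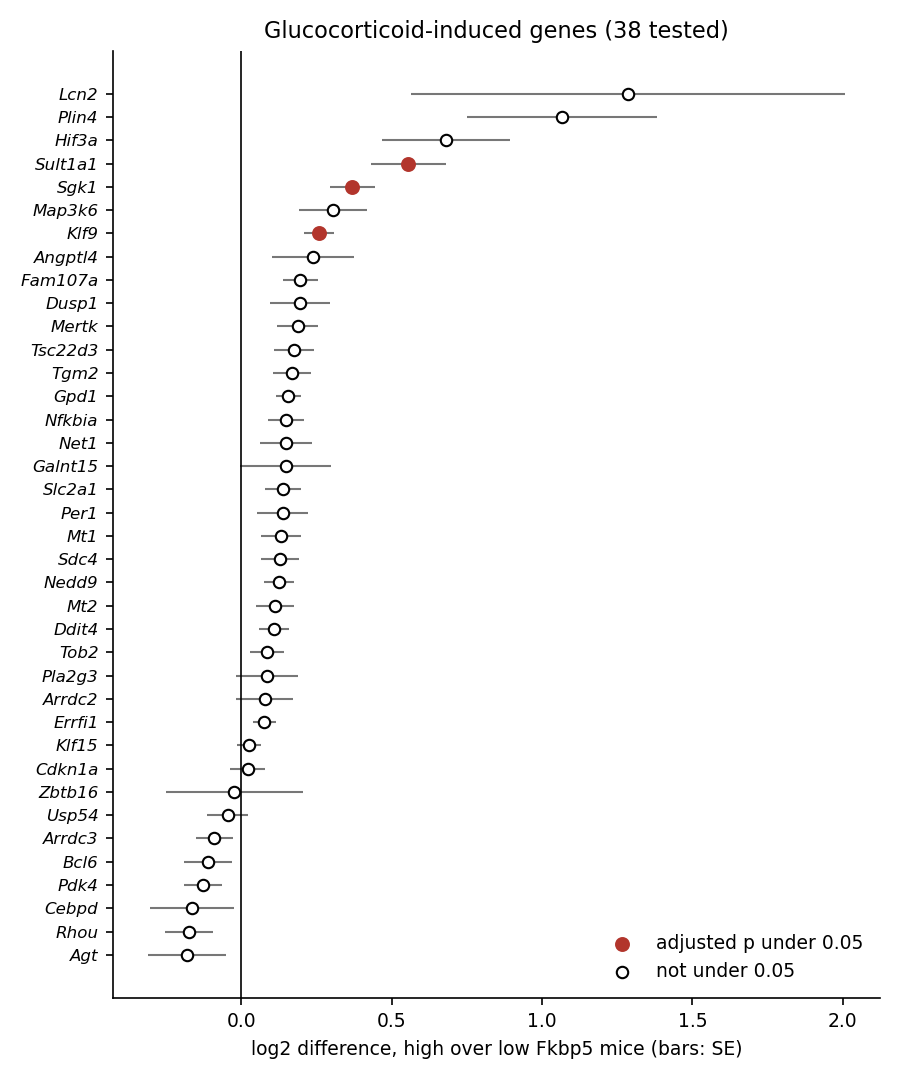
Log2 difference, high over low Fkbp5 mice (x axis), with its SE as bars, for the 38 glucocorticoid-induced genes (y axis, sorted). Filled points are the 3 genes with an adjusted p under 0.05, and 30 of the 38 points lie to the right of 0.

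Promoter sequences are shown for the 4 listed genes whose window holds the receptor's palindromic element, since this element is the known recognition sequence of the receptor. Windows run from 250 bases before to 50 bases after a transcription start and come from RefSeq (GRCm38.p6, which is mm10). Of the 38 genes, 32 have a window in the table used. The element was searched as ACANNNTGT preceded by GN and followed by NC, which reads the same on both strands and contains the shorter ACANNNTGT. The Sgk1 window, at 1 of its 6 listed starts, is chr10:21993640-21993939 (plus strand). That of Fam107a is chr14:8309728-8310027 (minus strand), that of Map3k6 is chr4:133240568-133240867 (plus strand) and that of Mt1 is chr8:94178839-94179138 (plus strand). Each is written 5′ to 3′ on the gene's strand, with the element in capitals.
Sgk1: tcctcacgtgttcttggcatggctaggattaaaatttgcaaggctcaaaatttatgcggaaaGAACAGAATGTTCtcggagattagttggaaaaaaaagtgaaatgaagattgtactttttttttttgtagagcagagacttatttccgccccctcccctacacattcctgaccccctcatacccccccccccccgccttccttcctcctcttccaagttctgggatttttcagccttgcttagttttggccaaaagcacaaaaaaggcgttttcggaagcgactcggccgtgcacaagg
Fam107a: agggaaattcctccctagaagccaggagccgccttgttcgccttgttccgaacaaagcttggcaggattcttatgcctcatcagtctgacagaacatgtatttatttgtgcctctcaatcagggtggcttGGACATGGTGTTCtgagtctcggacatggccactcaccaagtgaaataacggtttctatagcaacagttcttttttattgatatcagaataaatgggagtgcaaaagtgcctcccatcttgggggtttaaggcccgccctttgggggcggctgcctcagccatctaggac
Map3k6: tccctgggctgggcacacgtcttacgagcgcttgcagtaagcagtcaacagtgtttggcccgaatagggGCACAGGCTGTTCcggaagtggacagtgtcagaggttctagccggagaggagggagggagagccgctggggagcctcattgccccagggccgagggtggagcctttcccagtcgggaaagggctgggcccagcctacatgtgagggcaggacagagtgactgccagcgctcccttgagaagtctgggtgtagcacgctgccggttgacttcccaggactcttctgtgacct
Mt1: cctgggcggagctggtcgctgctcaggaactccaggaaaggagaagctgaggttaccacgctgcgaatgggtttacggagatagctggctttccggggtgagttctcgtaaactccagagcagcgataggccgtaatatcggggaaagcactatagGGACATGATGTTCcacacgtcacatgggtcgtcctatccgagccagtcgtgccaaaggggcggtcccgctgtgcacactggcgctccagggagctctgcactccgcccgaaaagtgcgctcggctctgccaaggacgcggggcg

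The element stood 188 bases before the start in Sgk1, 120 in Fam107a, 181 in Map3k6 and 94 in Mt1. The longer element was present in 5 of the 48 windows of listed genes (10.4%), which belong to 4 of the 32 genes, in 0.475% of all 32851 windows and in 0.377% of the 16186 windows of tested genes. The shorter ACANNNTGT was present in 9 of the 48 windows (18.8%), in 6.85% of all windows and in 4.62% of those of tested genes. The windows of Fkbp5, Klf9 and Sult1a1 hold neither. A match is a run of letters, not a measured site. Of the 4 genes only Sgk1 was called. The log2 differences were 0.20 (SE 0.06) for Fam107a, 0.30 (SE 0.11) for Map3k6 and 0.13 (SE 0.07) for Mt1, with adjusted p of 0.0974, 0.174 and 0.330 (edgeR).

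Several genes that respond to glucocorticoids in many tissues did not pass. Plin4, a lipid droplet coat protein, had 1.03, 3.28 and 16.4 CPM (lowest, median and highest) in high mice, against 1.28, 1.74 and 3.52 CPM in low mice (log2 difference 1.07, SE 0.32; edgeR, adjusted p = 0.0961). Hif3a, a hypoxia-inducible factor subunit, averaged 9.22 ± 4.12 CPM in high mice and 5.57 ± 2.16 CPM in low mice (SD, n = 10 each; edgeR, adjusted p = 0.1104). Tsc22d3, which encodes the anti-inflammatory protein GILZ, averaged 50.1 ± 9.04 CPM in high mice and 44.6 ± 5.72 CPM in low mice (SD, n = 10 each; edgeR, adjusted p = 0.174). Gpd1, a glycerol-3-phosphate dehydrogenase of oligodendrocytes, had a log2 difference of 0.16 (SE 0.04; edgeR, adjusted p = 0.0670).

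The clock gene and receptor target Per1 averaged 110 ± 20.4 CPM in high mice and 99.6 ± 17.9 CPM in low mice (SD, n = 10 each; edgeR, adjusted p = 0.459). Zbtb16, which encodes the transcription factor PLZF, averaged 10.9 ± 5.58 CPM in high mice and 10.8 ± 3.02 CPM in low mice (SD, n = 10 each; edgeR, adjusted p = 0.980). Cdkn1a, the cell cycle inhibitor p21, had a log2 difference of 0.02 (SE 0.06). The metallothionein Mt2 had one of 0.11 (SE 0.06) and the phosphatase Dusp1 one of 0.20 (SE 0.10).

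A single high mouse led much of the list. Mouse 25, an N/- female of set B with the highest Fkbp5 of all 32 mice (65.8 CPM), was the highest of the 10 high mice in 22 of the 38 genes and the highest of all 32 mice in 15. How often it was the highest across all tested genes was not counted. These counts therefore do not show that it led this list in particular. Mouse 25 was singled out after its values were seen. It had 138 CPM of Sgk1, where the next high mouse had 90.1 CPM, and 16.4 CPM of Plin4, where the next had 6.75 CPM. Without it the log2 difference of Plin4 was 0.71 (SE 0.23), that of Sgk1 0.28 (SE 0.05) and that of Tsc22d3 0.12 (SE 0.06). The median of the list was then 0.11, and 10 of its 38 genes were higher at an unadjusted p under 0.05, beside 7.28% of all tested genes.

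**Figure D3:**
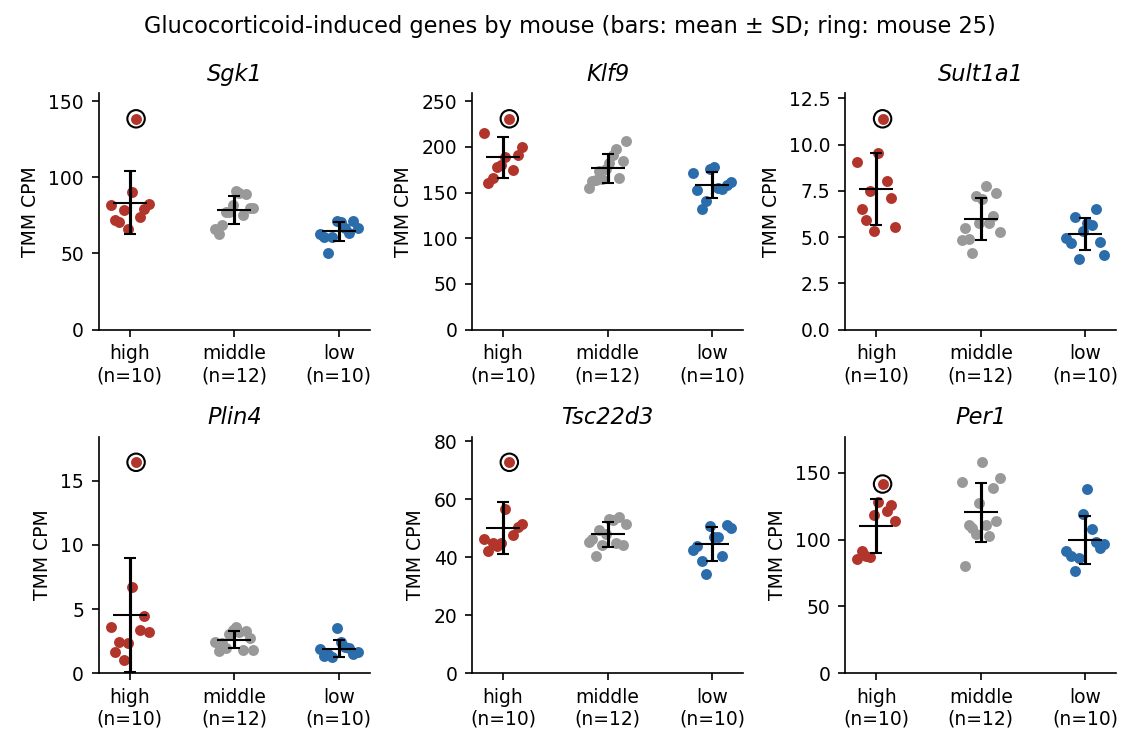
TMM-scaled CPM (y axes, from 0) of Sgk1, Klf9, Sult1a1, Plin4, Tsc22d3 and Per1 in each mouse, for 10 high, 12 middle and 10 low Fkbp5 mice (x axes). Points are mice, bars are the mean ± SD, and a ring marks mouse 25, which had 138 CPM of Sgk1 and 16.4 CPM of Plin4.

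The list's median was positive in each division of the mice, although no gene was called in any of them. Its median log2 difference was 0.10 in set A and 0.12 in set B, 0.16 in N/- and 0.09 in N/N mice, and 0.09 in males and 0.14 in females. Members higher at an unadjusted p under 0.05 numbered 9 of 38 in set A, 13 of 37 in set B, 12 of 37 in N/- and 7 of 38 in N/N mice, 4 of 38 in males and 10 of 37 in females. In these fits all tested genes were higher at an unadjusted p under 0.05 in 6.93% (set A), 4.22% (set B), 4.96% (N/-), 2.65% (N/N), 2.11% (males) and 3.31% (females) of cases. The fits by sex held 5 high and 4 low males, and 5 high and 6 low females, with mouse 25 among the high females. N/- set A had no low male and N/N set A no low female. High mice 8 and 3, alone of their sex in their strata, therefore added nothing to the contrast of states. The log2 difference of Sgk1 was 0.20 (SE 0.07) in males and 0.50 (SE 0.12) in females. That of Klf9 was 0.093 (SE 0.08) in males and 0.35 (SE 0.07) in females, and that of Sult1a1 0.19 (SE 0.12) in males and 0.78 (SE 0.20) in females. Plin4 had 0.28 (SE 0.30) in set A and 1.77 (SE 0.38) in set B. Mouse 25, with 16.4 CPM of Plin4, was also among the high mice of set B and of N/-. Whether the difference between states depended on genotype, set or sex was tested by interaction terms, and 0 genes passed in edgeR and 0 in limma voom. At an unadjusted p under 0.05 edgeR gave 226 genes (1.33%) for genotype, 1532 (9.03%) for set and 272 (1.6%) for sex, and limma voom gave 239, 1572 and 284. Among the 3 called members, the smallest unadjusted p of an interaction was 0.0125, for Klf9 by sex (adjusted p = 1), and Plin4 had 0.0114 by set (adjusted p = 0.542), both in edgeR.

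The machinery of glucocorticoid signalling showed no called gene among 21 tested members, where 1.14% of all tested genes were called. Its median log2 difference was -0.0025, with 10 members positive and 11 negative. The glucocorticoid receptor Nr3c1 had a log2 difference of -0.06 (SE 0.04) and the mineralocorticoid receptor Nr3c2 one of -0.02 (SE 0.05). Fkbp4, the co-chaperone that FKBP5 competes with, had one of -0.0025 (SE 0.07). The member nearest the threshold was Hsd11b1, the enzyme that regenerates active glucocorticoid inside cells. It averaged 6.41 ± 0.987 CPM in high mice and 8.12 ± 1.57 CPM in low mice (SD, n = 10 each; log2 difference -0.34, SE 0.10; edgeR, adjusted p = 0.0900). Of the 13 other FK506-binding protein genes tested, none was called either, and at a share of 1.14% lists this small may well hold none. The smallest p was that of Fkbp1b, a partner of ryanodine receptors, with a log2 difference of -0.32 (SE 0.13; edgeR, adjusted p = 0.214).

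No clock gene and no gene of the fasting and FOXO list was called, where 1.14% of all tested genes were. Among 19 clock genes 16 were positive (median log2 difference 0.07), as were 10 of 16 fasting and FOXO genes (median 0.07), beside 50.9% of all tested genes. Npas2, a forebrain partner of BMAL1, averaged 89.8 ± 5.76 CPM in high mice and 80.0 ± 3.76 CPM in low mice (SD, n = 10 each; edgeR, adjusted p = 0.0570). The D-box factors Hlf and Tef had log2 differences of 0.17 (SE 0.05) and 0.16 (SE 0.05). Of the FOXO targets, Sesn1, a sestrin that restrains mTORC1, averaged 68.4 ± 3.34 CPM in high mice and 63.1 ± 2.52 CPM in low mice (SD, n = 10 each; edgeR, adjusted p = 0.0647). In the immediate early genes 16 of 26 were positive (median 0.03). Jun, with the smallest p of that list, was lower in high mice (log2 difference -0.26, SE 0.08; edgeR, adjusted p = 0.109). Homer1 was higher (log2 difference 0.17, SE 0.06; edgeR, adjusted p = 0.154). Npas4, an activity-dependent transcription factor, had 10.2, 27.2 and 49.3 CPM (lowest, median and highest) in high mice, against 9.29, 12.7 and 51.6 CPM in low mice, and did not pass (edgeR, adjusted p = 0.251).

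Of the 12 genes with the smallest p-values among those higher in high-Fkbp5 mice, 1, Klf9, belongs to the glucocorticoid-induced list. That list holds 38 of the 16965 tested genes. Nt5e, the ectonucleotidase that makes adenosine outside cells, averaged 26.4 ± 3.76 CPM in high mice and 18.8 ± 3.38 CPM in low mice (SD, n = 10 each; log2 difference 0.50, SE 0.08; edgeR, adjusted p = 0.0335). Tacr1, the substance P receptor, averaged 36.8 ± 5.07 CPM in high mice and 28.6 ± 3.82 CPM in low mice (SD, n = 10 each; log2 difference 0.37, SE 0.06). The others of the 12 smallest were Cacnb2, Chat, Adcy3, Mchr1, Actn2, Gpr158, Kazn, Rgs8, Klf9 and Kcna5, with log2 differences of 0.23 to 0.38 and the same adjusted p of 0.0335. Chat, the acetylcholine-synthesizing enzyme, and Slc5a7, the choline transporter, both mark cholinergic interneurons. Slc5a7 averaged 40.1 ± 4.96 CPM in high mice and 31.3 ± 4.88 CPM in low mice (SD, n = 10 each; edgeR, adjusted p = 0.0335).

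Of the genes lower in high-Fkbp5 mice, Igdcc4 had the smallest p-value. Igdcc4, an immunoglobulin superfamily membrane protein, averaged 41.5 ± 4.49 CPM in high mice and 53.8 ± 4.80 CPM in low mice (SD, n = 10 each; log2 difference -0.38, SE 0.06; edgeR, adjusted p = 0.0201). All 10 high mice lay below the median of the low mice. The others of the 12 smallest were Adamts1, Sema6a, Fgfr2, Gab1, Tnc, Pax6, Sox10, Nfia, Bche, Slc14a1 and Mob3b, with log2 differences of -0.24 to -0.58 and an adjusted p of 0.0335. Sox10, the master regulator of oligodendrocytes, averaged 56.3 ± 5.36 CPM in high mice and 69.7 ± 10.3 CPM in low mice (SD, n = 10 each). Gfap, the intermediate filament of astrocytes, had 64.0, 78.2 and 97.0 CPM (lowest, median and highest) in high mice, against 75.7, 113 and 174 CPM in low mice (log2 difference -0.56, SE 0.11; edgeR, adjusted p = 0.0335). The astrocyte list as a whole had a median of -0.05, with 11 of 16 members lower, beside 49.1% of all tested genes.

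Markers of striatal and cortical neurons differed between the states in opposite directions. All 18 tested markers of striatal projection neurons had positive differences, with a median log2 difference of 0.31. Of these, 7 passed (Drd1, Pde10a, Tac1, Gnal, Ptpn5, Adcy5 and Rasd2), where 0.696% of all tested genes were called higher. Drd1, the dopamine D1 receptor, averaged 309 ± 35.8 CPM in high mice and 247 ± 33.5 CPM in low mice (SD, n = 10 each; log2 difference 0.34, SE 0.07; edgeR, adjusted p = 0.0367). Of 15 tested markers of cortical glutamatergic neurons, 14 were lower, with a median of -0.48. At an unadjusted p under 0.05, 13 of them were lower, beside 8.66% of all tested genes. None of the 15 passed the adjusted test. Neurod1, a bHLH factor, had 0.283, 1.18 and 2.35 CPM (lowest, median and highest) in high mice, against 0.737, 2.10 and 5.71 CPM in low mice (edgeR, adjusted p = 0.0631).

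The summed level of the cortical markers ran from 769 to 1698 CPM in high mice and from 886 to 2477 CPM in low mice. That of the projection neuron markers ran from 12107 to 19641 CPM in high mice and from 9544 to 14660 CPM in low mice. None of these markers was at 0 in all of the mice. In such bulk tissue fewer cells of a type, less RNA per cell and a different share of neighbouring tissue in the punch cannot be told apart. The mean log2 level of the cortical list ran from 4.12 to 5.47 in high mice and from 4.60 to 6.05 in low mice. That of the projection neuron list ran from 8.92 to 9.58 in high mice and from 8.58 to 9.16 in low mice. Both scores therefore overlapped between states.

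**Figure D4:**
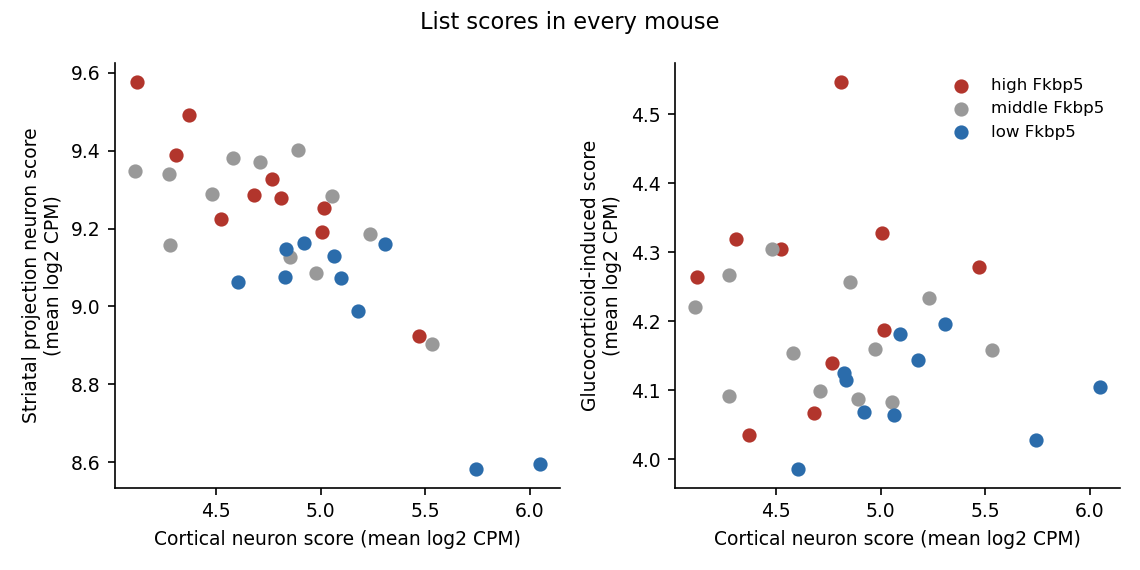
Mean log2 CPM of the projection neuron markers (left, y axis) and of the glucocorticoid-induced genes (right, y axis) against that of the cortical markers (x axes) in each of the 32 mice, colored by Fkbp5 state. High mice ran from 8.92 to 9.58 on the left and from 4.04 to 4.55 on the right, against 8.58 to 9.16 and 3.99 to 4.20 in low mice.

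With the cortical score as a covariate, 0 genes passed in edgeR, beside 1435 at an unadjusted p under 0.05 (8.46% of 16965). The glucocorticoid-induced list then had 33 of 38 members positive and a median of 0.14, with 14 higher and 2 lower at an unadjusted p under 0.05, where 4% of all tested genes were higher and 4.46% lower. Log2 differences in that fit were 0.39 (SE 0.09) for Sgk1, 0.25 (SE 0.06) for Klf9, 0.63 (SE 0.15) for Sult1a1, 1.33 (SE 0.38) for Plin4 and 0.27 (SE 0.07) for Tsc22d3. The projection neuron median was 0.14 in that fit. The cortical median was 0.02, which the fit largely fixed, because the score is the mean of these same markers. With the projection neuron score added as well, the glucocorticoid median was 0.13 and 11 members were higher at an unadjusted p under 0.05, beside 5.71% of all tested genes. The fit with all 32 mice and Fkbp5 as a continuous term called 156 genes, of which 83 were among the 193. It had no cage term, although the 32 mice came from 20 cages, so cage mates counted as separate mice. Among the 156 genes 4 of the glucocorticoid-induced list were higher, beside 0.661% of all tested genes. With the cortical score in that fit, 0 genes passed in edgeR, 1893 had an unadjusted p under 0.05, and the list's median was 0.11.

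**Figure D5:**
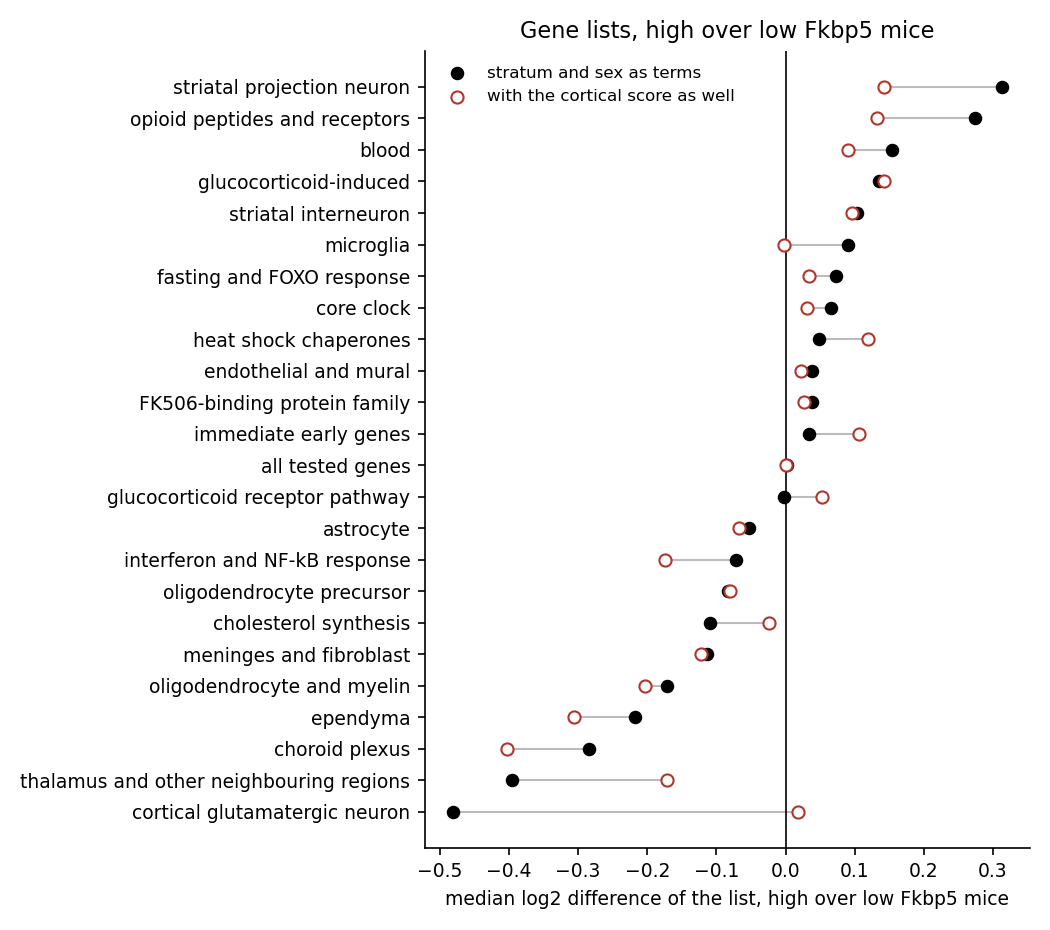
Median log2 difference, high over low Fkbp5 mice (x axis), for the 23 gene lists and all tested genes (y axis), with stratum and sex as terms (filled) and with the cortical score added (open). The glucocorticoid-induced median was 0.14 in both fits, and the cortical median was -0.48 in the filled and 0.02 in the open fit. The open cortical value was largely fixed, because the score is made of the same genes.

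Opioid peptide and receptor genes were positive in 6 of 8 (median 0.27). Penk, the enkephalin precursor of striatal projection neurons, had 1075, 1489 and 1986 CPM (lowest, median and highest) in high mice, against 857, 1279 and 1580 CPM in low mice (edgeR, adjusted p = 0.0842). Oligodendrocyte and myelin genes were lower in 17 of 18 (median -0.17), ependymal genes in 12 of 12 (median -0.22) and choroid plexus genes in 8 of 11 (median -0.28), with none called. Among all tested genes 49.1% were negative and 1.14% called. Without terms for stratum and sex, the summed myelin markers had medians of 9658 CPM in high and 9606 CPM in low mice. Those sums were 32.4 and 37.5 CPM for ependymal markers, and 21.5 and 19.6 CPM for choroid plexus markers. Cholesterol synthesis genes were lower in 20 of 22 (median -0.11), 6 of them at an unadjusted p under 0.05, beside 8.66% of all tested genes. Interferon and NF-kB response genes were lower in 16 of 18 (median -0.07). Ifit2, an interferon-induced RNA-binding protein, averaged 9.10 ± 0.474 CPM in high mice and 10.8 ± 1.17 CPM in low mice (SD, n = 10 each; edgeR, adjusted p = 0.0604).

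Microglial genes were positive in 15 of 16 (median 0.09), and endothelial and mural genes in 11 of 16 (median 0.04). Of all tested genes 50.9% were positive and 49.1% negative, and 1.14% were called. Oligodendrocyte precursor genes were lower in 11 of 12 (median -0.08), with Sox10 called, and meningeal genes in 8 of 12 (median -0.11). Genes of thalamus and other regions were lower in 8 of 10 (median -0.40), with Calb2, the calcium buffer calretinin, called. It averaged 5.21 ± 1.88 CPM in high mice and 7.62 ± 1.77 CPM in low mice (SD, n = 10 each; edgeR, adjusted p = 0.0440). Calb2 also stands in the interneuron list, where 8 of 12 were positive (median 0.10) and Chat and Slc5a7 rose. Heat shock chaperones were positive in 10 of 16 (median 0.05) and red blood cell genes in 3 of 4 (median 0.15), with none called. What part these cell type markers have in the hormone-target differences was not tested beyond the covariate fits.

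The genes whose log2 level followed that of Fkbp5 most closely over all 32 mice, after stratum and sex were removed, are given as a description. They were Kazn (Pearson r 0.795), Sesn1 (0.794), Nt5e (0.787), Lpl (0.785), Spring1 (0.769), Tac1 (0.759), Ube2g2 (0.757), Sun2 (0.754), Scamp1 (0.753) and Cracdl (0.752). Sesn1 stands in the FOXO list and Tac1, which encodes substance P, in the projection neuron list. None of the 10 is in the glucocorticoid-induced list, which holds only 38 of the 16965 tested genes. Lpl, lipoprotein lipase, averaged 72.6 ± 11.7 CPM in high mice and 56.5 ± 8.50 CPM in low mice (SD, n = 10 each; log2 difference 0.38, SE 0.09; edgeR, adjusted p = 0.0407). The points share library depth and tissue makeup, so no p is given.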

How the data were processed

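The authors deposited raw read counts per gene, 1 table for each of 64 sequencing runs, with Entrez identifiers. Per the submitters' processing notes, FastQC 0.11.3, featureCounts of Subread and mm10 were used, with edgeR 3.8.6 and limma 3.22.7 also named; the series text names TopHat and HTSeq, and which pair made the counts is not settled. Whether counting used strand is not stated by the sources, so overlapping and near-identical genes are uncertain. The labels give 16 mice per genotype and the series text 8; the labels were followed.

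Both runs of a mouse were summed (each of the 64 had its highest correlation with its partner, r 0.998 to 0.999 across genes on log2(CPM + 1)). Of 27179 identifiers 25275 had a RefSeq symbol (GRCm38.p6); the rest held 0.766% of counts. Fkbp5 CPM was taken on the summed counts. The high and low mice were compared with edgeR 4.0.16 in R 4.3.3, by the robust quasi-likelihood test with filterByExpr, TMM, and stratum, sex and state as terms; Fkbp5 was left out of the adjustment. P-values were adjusted over all tested genes (Benjamini-Hochberg), threshold 0.05. The SE is the absolute log2 difference over the square root of F. The test was tried on simulated counts. Alternatives were DESeq2 1.42.0, limma 3.58.1 voom and other rankings, filters, terms and subsets of mice. Library measures were compared by exact permutation within strata (14400 assignments). List scores are means of log2 CPM with a prior count of 2.

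The mice, the 23 gene lists and the motif were chosen with earlier results of these data known. Named genes are the glucocorticoid-induced list, the 12 smallest p in each direction, the 3 smallest p of each other list and the 10 genes most like Fkbp5. The values of 1 gene of the glucocorticoid-induced list are not reported here. Mouse 25, the receptor and called list members named beyond these were chosen after their values were seen. Added after seeing the data were a fit without mice 3 and 12, fits with the projection neuron score alone or beside the cortical score, and the cortical score in the continuous fit. The median total was 31.3 mega counts, and genes of low CPM are the least precise.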

Additional observations from a re-analysis of the deposited data

Results flagged for a closer look

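In groups of 10 mice, the highest or lowest mouse was set against its nearest neighbour for Fkbp5, library measures, the 38 glucocorticoid-induced genes and the 23 list scores. Of 130 groups, 16 held a mouse whose gap to the next exceeded Dixon's critical value. The rate of about 1 in 20 groups by chance holds for independent groups of normally distributed values. These groups share mice, some share genes, and those of Fkbp5 were cut by the ranking. The count of 16 is therefore no test of an excess.

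Mouse 25, a high-Fkbp5 N/- female, stood above the other high mice in 5 genes. It had 138 CPM of Sgk1 (next 90.1), 72.8 CPM of Tsc22d3 (next 56.8), 24.6 CPM of Zbtb16 (next 13.4), 16.4 CPM of Plin4 (next 6.75) and 4.80 CPM of Map3k6 (next 3.32). Mouse 12, also high, stood apart with 10.4% mitochondrial counts (next 7.83%) and 17.03 CPM of Pdk4 (next 14.6). High mouse 8 had 2.45 CPM of Lcn2 (next 0.823).

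Among low-Fkbp5 mice, mouse 9 had 50.2 CPM of Sgk1 (next 60.7), mouse 15 had 3.52 CPM of Plin4 (next 2.45) and mouse 30 had 15.3 CPM of Dusp1 (next 11.3). Mouse 1 had 10.02 CPM of Agt (next 4.69), and mouse 4 had 19.1 CPM of Net1 (next 14.6). In mean log2 CPM, mouse 15 had an opioid score of 3.92 (next 4.15), mouse 30 a precursor score of 5.56 (next 5.49) and mouse 4 an ependymal score of 0.449 (next 0.998). The causes of these gaps were not tested.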

How the results depend on the processing

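The count of 193 calls was 197 with relative log expression (RLE) scaling, 210 with limma voom, 192 without mitochondrial genes, 144 with no filter and 141 without the sex term. It was 713 with DESeq2, 13 with the choroid plexus score and 2 with the endothelial and mural score as covariates, 3 with every mouse assigned to the upper or lower side of its stratum, and 5 when mice were ranked by run 1 and tested on run 2. It was 0 in sets A and B, N/-, N/N, males and females alone (edgeR; 2536, 1502, 1802, 1132, 910 and 1186 genes at an unadjusted p under 0.05), and 0 with additive terms (2669), TMM ranking (2948), ranking by run 2 (2143), the projection neuron score (1243), both scores (1929) and a random effect of cage in limma voom (2422, cage correlation 0.597). It was also 0 with the cortical score, without mice 3 and 12, and in the continuous fit with the cortical score. The ranking by TMM-scaled CPM kept 10 high and 9 low of the mice compared here. Leaving out 1 mouse gave 0 to 402. The cause was not tested. All 193 genes kept their direction in each alternative, apart from 1 with both scores. The alternatives reuse mice that chose these genes, so a kept direction is no separate test. An unadjusted p under 0.05 was kept by 81 of the 193 with the projection neuron score, 92 with both scores and 114 in males. In every other alternative 154 or more kept it. The difference in total counts (0.163 mega counts) was -0.320 with every mouse assigned.

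Of 95 genes followed, 10 changed sign somewhere. Zbtb16 (-0.02) was 0.068 in the continuous fit, 0.36 with the cortical score in it, 0.19 in N/-, 0.57 with both scores, 0.38 with the cortical, 0.051 with the endothelial and 0.61 with the projection neuron score, 0.11 in females, 0.024 ranked by run 2, 0.50 in set B and 0.19 without mice 3 and 12, and -0.25 to 0.088 leaving out 1 mouse. Per1 was -0.032 in males. With both scores, in set B and with the projection neuron score, Mt1 was -0.070, -0.023 and -0.040, and Mt2 -0.070, -0.014 and -0.051. Cdkn1a was -0.025 in N/-, -6.2e-05 in males, -0.015 by TMM ranking, -0.025 ranked by run 1 and -0.025 in set B. Fkbp1b was 0.0011 in the continuous fit with the cortical score, 0.026 with the cortical and 0.078 with the projection neuron score. Foxo1 was -0.0019 and -0.0037, and Penk -0.057 and -0.049, with both scores and with the projection neuron score. Fezf2 was 0.048 with the projection neuron score, and Aldh1a2 0.020 ranked by run 2. No paired analysis was possible because no cage holds both a high and a low mouse and no mouse number is shared. Genes under 1 CPM, such as Lcn2, are limited by depth.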
